A study of Danio rerio with 12 samples.

Results

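The comparison described here sets whole zebrafish exposed to benzo[a]pyrene (B[a]P), a polycyclic aromatic hydrocarbon, against Control fish at 48 h, with 3 libraries a side. The B[a]P libraries carry B[a]P alone, and the Control libraries carry neither compound. The series of 12 libraries also has 3 with diclofenac and 3 with both compounds, whose comparisons are not used here. Those libraries enter the average abundance, and whether they also entered the authors' estimates of error is not stated. The labels give no strain, age, sex, dose, vehicle or number of animals per library, so what a library stands for is known only as whole body tissue. All entries averaging at least 1 CPM (a read count scaled to a fixed library total) were taken, which left 21622 of the 35497 entries in the authors' deposited table. An entry is a transcript class of a gene identifier, and the entries kept belong to 20703 of 30628 gene identifiers. The labels call the replicates independent without saying what was kept separate, so p-values measure the spread between libraries of the authors' fit.

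B[a]P is a classic ligand of the Ah receptor, a transcription factor that pairs with Arnt and switches on cytochrome P450 family 1 genes, whose enzymes oxidise the compound to reactive products. Some of those products bind DNA or generate oxidants, and cells answer oxidants through Nrf2, which drives glutathione and antioxidant genes and is held back by Keap1. Conjugating enzymes such as UDP-glucuronosyltransferases and sulfotransferases then make the products water soluble for export.

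The values are the authors' fits, in which the 3 libraries of each group are already combined, so values per library, means and SDs were not analysed here and the depth of each library in the table is unknown. The labels state 40 to 80 M reads of 150 bases per library. Each log2 fold change below is B[a]P over Control as the authors' deposited table gives it, with a standard error (SE) or a 95% interval implied by its likelihood ratio. Abundance in CPM is the average over all groups of the fit; it is not corrected for length and is not compared between genes. An entry is called higher or lower where the p of the authors' two-sided likelihood ratio test, adjusted by Benjamini-Hochberg over all 21622 entries, is under 0.05.

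Few entries passed the threshold for B[a]P against Control, which does not show that few transcripts changed. Of the 21622 entries, 25 rose and 7 fell, which is 0.148% in either direction, 0.116% higher and 0.0324% lower. They belong to 31 gene identifiers. The unadjusted p was under 0.05 for 860 entries, 3.98% of those tested. A share of 0.05 would be there if no entry had changed and the p-values were calibrated, which was not tested. The lower share therefore does not show an absence of change. The lower count was 1 under the stricter Benjamini-Yekutieli adjustment and 4 when entries with an implied SE over 1 were left out. The middle of the distribution lay near 0, with a median log2 fold change of 0.02 and quartiles of -0.14 and 0.16. How the libraries were scaled is not given, and scaling can itself place the middle near 0. Of the 341 entries whose absolute log2 fold change reached 1 in the authors' deposited table, 31 were called, and stm was the single called entry under 1.

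The size of change that reached the threshold differed with abundance. Entries averaging from 1 CPM to less than 4 CPM had a median implied SE of 0.42, and a log2 fold change of about 1.71 was needed to reach the threshold at that SE. At higher averages the size needed was between 0.69 and 1.03. The entries nearest the abundance limit included gpr55a and dync2li1 just inside it, at log2 fold changes of 0.05 and 0.44, and map3k8 and kcnk2b just outside it, at -0.36 and 0.06.

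**Figure D1:**
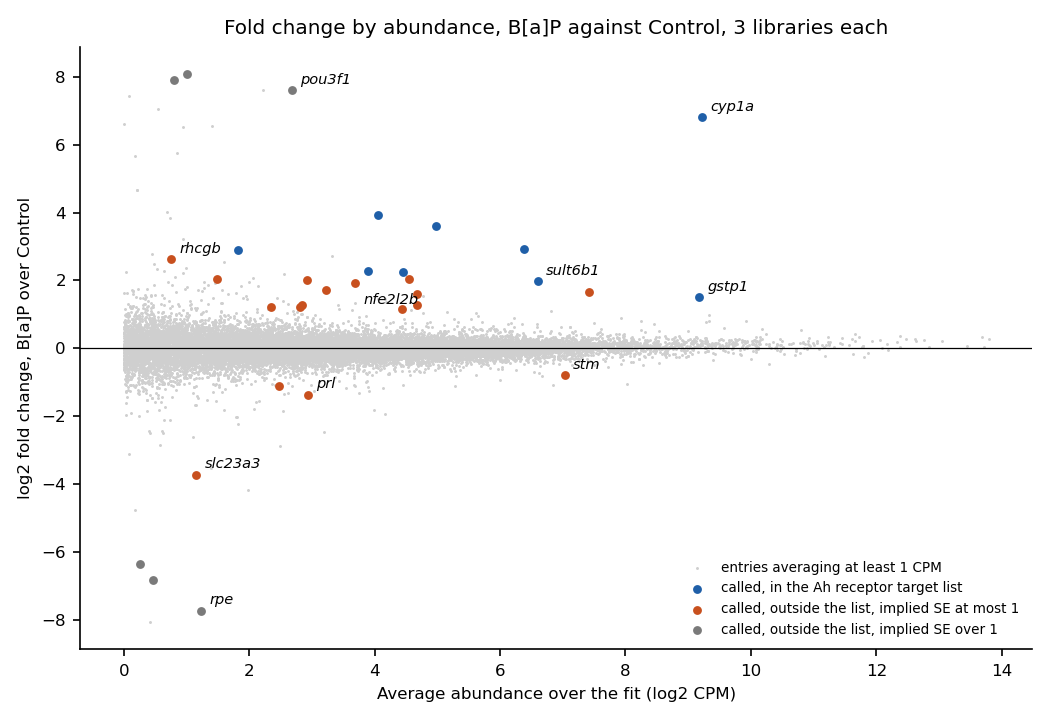
Log2 fold change, B[a]P over Control (y axis), against the average abundance in log2 CPM (x axis) for the 21622 entries; colours mark the 32 called entries by kind. The cyp1a entry stands apart at 6.80, and most called entries lie above 0. The 6 grey entries with an implied SE over 1 lie beyond 6 in either direction, at averages between 0.26 and 2.68 log2 CPM.

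Of the 18 listed Ah receptor targets, 14 were measured and 8 of them rose. The lead was cyp1a, the main B[a]P-oxidising enzyme, at 6.80 ± 0.31 (log2 fold change ± implied SE). The other family 1 enzymes cyp1b1, cyp1c1 and cyp1c2, the receptor's repressor ahrra, the forkhead factor foxq1a, the sulfotransferase sult6b1 and the glutathione transferase gstp1 rose by between 1.51 and 3.92 in the authors' deposited table. The list was written with results of these data known, so its count is not independent evidence. The receptor genes themselves and their partners gave no call among 12 measured, and their median log2 fold change was 0.01. The main zebrafish receptor gene ahr2 was at 0.21 (95% interval -0.10 to 0.52).

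Outside the list of Ah receptor targets, 23 entries were called, 16 higher and 7 lower. Whether any of these also answers to the receptor was not tested. The 23 divide by precision into 17 with an implied SE of at most 0.84 and 6 with an SE of at least 1.39. The 17 comprised 13 that rose and 4 that fell, at averages between 1.68 and 171 CPM.

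The first of the 13 by p was nfe2l2b, a zebrafish paralog of the antioxidant regulator Nrf2, which rose by 1.92 ± 0.29 in the authors' deposited table (adjusted p = 1.88e-07). Its paralog nfe2l2a was at 0.38 ± 0.17, which is no call (adjusted p = 1). Enzymes of small-molecule metabolism were present among the 13. The dehydrogenase/reductase family member dhrs13l1 rose by 2.03 ± 0.36 (adjusted p = 2.14e-05), and ugt1a7, which attaches glucuronic acid to foreign compounds, rose by 1.17 ± 0.25 (adjusted p = 0.00245). Zebrafish ugt1a genes share exons, so the assignment of reads to ugt1a7 is uncertain.

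The remaining higher entries were of varied known roles. The Rh-family ammonia transporter gene rhcgb rose by 2.64 ± 0.50 at an average of 1.68 CPM (adjusted p = 1.40e-04). This was the largest log2 fold change of the 13 in the authors' deposited table, at the lowest average of the 17. That average includes the B[a]P libraries themselves, so rhcgb may have met the abundance limit only through libraries where it was high. The fibrocystin-like gene pkhd1l1 rose by 1.59 ± 0.28 and the RING finger gene lonrf1l by 1.27 ± 0.22. The lysosomal protease gene ctsl.1 rose by 2.04 ± 0.50 at 2.81 CPM (adjusted p = 0.0306), while an entry of another cathepsin gene, ctslb, was at -1.93 and did not pass (adjusted p = 0.0619). The symbol ctslb also has a more abundant entry, whose value is not given here. The TRIM-family gene btr02 rose by 1.29 ± 0.29. Another transcript class of btr02, below the abundance limit at 0.56 CPM, was at -6.42 ± 1.94. The protein kinase C gene prkchb rose by 1.22 ± 0.28. The other 4 entries carry clone-type names without a role in the files: that with the highest average, 171 CPM, rose by 1.65 ± 0.28, zgc:163022 by 1.73 ± 0.33, si:dkey-247k7.2 by 2.02 ± 0.39 and si:ch211-191a16.5 by 1.23 ± 0.26.

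The 4 entries that fell with an SE under 1 had unlike known roles. Prolactin (prl), the pituitary hormone of ion uptake in freshwater fish, fell by 1.36 in log2 fold change in the authors' deposited table (95% interval -1.95 to -0.78, adjusted p = 0.00527). Starmaker (stm), which shapes otolith crystals in the inner ear, fell by 0.79 with the smallest SE of the called entries, 0.18 (adjusted p = 0.0154). The retinol dehydrogenase gene rdh5, an enzyme of the visual cycle, fell by 1.12 ± 0.27 (adjusted p = 0.0327). A member of the ascorbate transporter family, slc23a3, fell by 3.72 ± 0.84 at an average of 2.23 CPM (adjusted p = 0.00865). None of these 4 passed under the stricter Benjamini-Yekutieli adjustment.

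**Figure D2:**
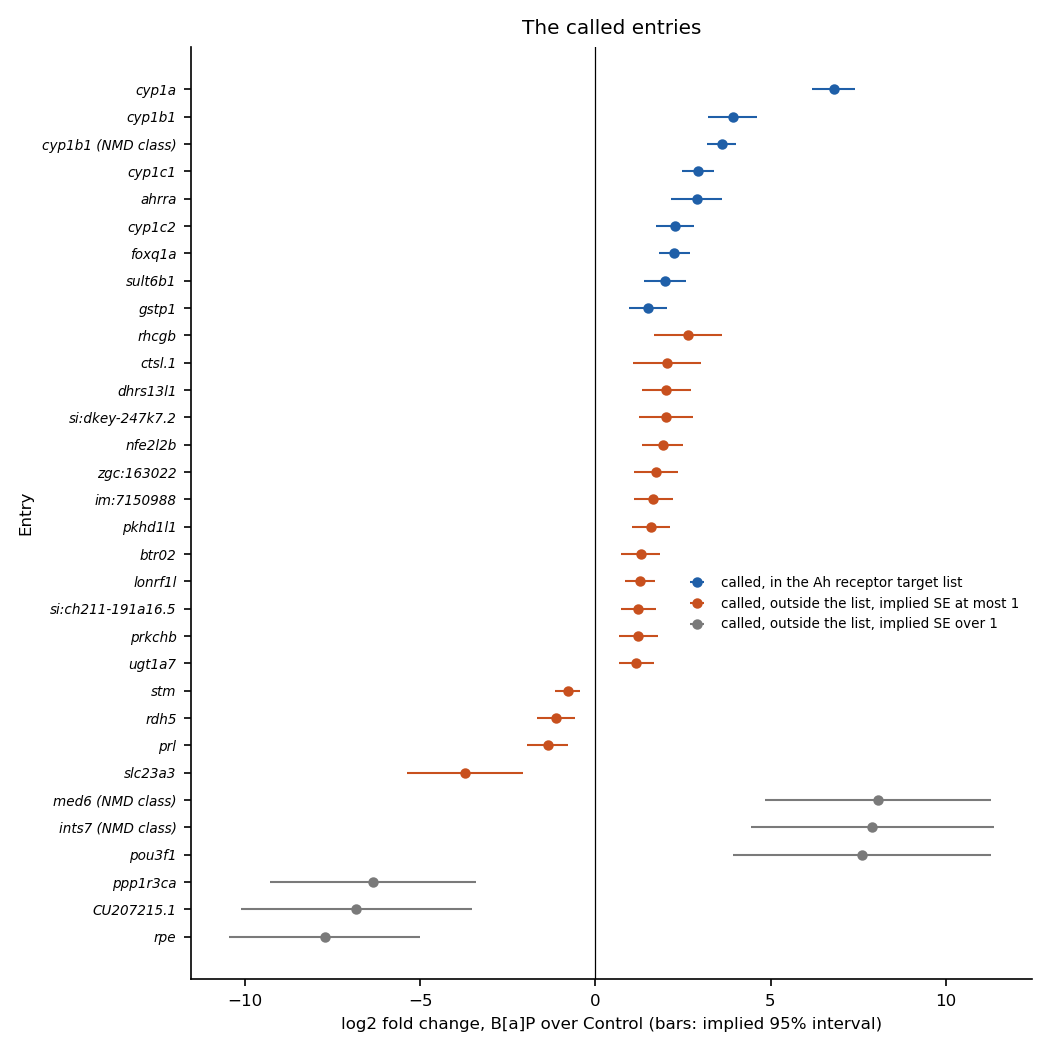
Log2 fold change, B[a]P over Control (x axis), with its implied 95% interval (horizontal line) for each of the 32 called entries (rows). The 25 higher entries include 9 of the Ah receptor target list, and the widest intervals belong to the 6 entries with an implied SE over 1, such as med6 at 8.07 and rpe at -7.72.

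The 6 entries with an implied SE over 1 had absolute log2 fold changes between 6.34 and 8.07 in the authors' deposited table. They were 3 higher entries, of med6, ints7 and pou3f1, and 3 lower ones, of rpe, ppp1r3ca and the clone-named CU207215.1. The last is described as BTB (POZ) domain containing 10b, and entries of that gene under another symbol were not looked up. Entries this imprecise were rare, at 230 or 1.06% of those tested. For 5 of the 6, another entry of the same symbol had a higher average CPM, and none of these 5 passed. The more abundant med6 entry, a Mediator subunit gene, was at -0.07 (95% interval -0.56 to 0.42), where its nonsense-mediated decay class was at 8.07. The same pair of classes for ints7, an Integrator subunit gene, was at -0.24 (95% interval -0.67 to 0.19) and 7.91. For rpe, an enzyme gene of the pentose phosphate pathway, the more abundant entry at 39.3 CPM was at -0.20 (95% interval -0.62 to 0.22) against -7.72 for the called identifier. The transcription factor gene pou3f1 had a called identifier at 7.61 and another, at 165 CPM, at -0.09 (95% interval -0.48 to 0.31). The glycogen-targeting phosphatase subunit gene ppp1r3ca had -6.34 in its called identifier and -0.29 (95% interval -0.76 to 0.18) in the other. These values in the authors' deposited table are changes of single entries, and how reads were divided between entries of the same symbol was not tested.

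**Figure D3:**
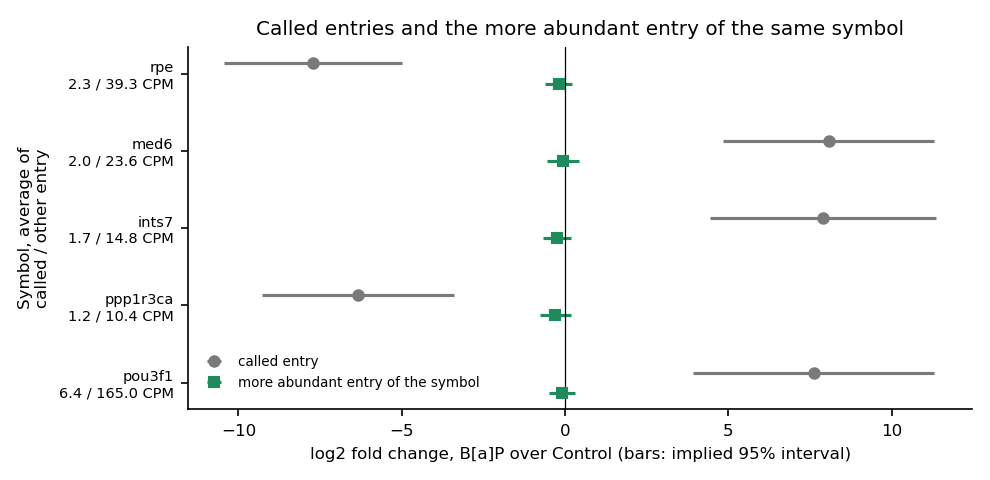
Log2 fold changes, B[a]P over Control, with implied 95% intervals for called entries with an SE over 1 and for the more abundant entry of the same symbol. The more abundant entries lie between -0.29 and -0.07, each with an interval that includes 0.

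Just past the threshold stood a set that includes clock and plasma protein genes, and none of these passed. On the higher side the light-responsive clock gene per2 was at 1.00 ± 0.26 (adjusted p = 0.0617) and the clock repressor nr1d1 at 1.39 ± 0.37 (adjusted p = 0.0728). The thiosulfate sulfurtransferase-like entry TSTD1 was at 1.27 (adjusted p = 0.0609), the purinergic receptor gene p2rx4b at 1.07, the sphingomyelinase gene smpd5 at 1.34, the selenoprotein gene selenow2b at 1.05, the cytochrome b5 reductase gene cyb5r1 at 2.79 and the proteasome activator gene psme1 at 1.42 in the authors' deposited table. Of these, cyb5r1 and smpd5 have a more abundant entry of the same symbol, at -0.24 and 0.33. On the lower side haptoglobin (hp), the haemoglobin-binding plasma protein, was nearest at -0.56 ± 0.14 (adjusted p = 0.0534). Angiotensinogen (agt) was at -1.08 (adjusted p = 0.0674), the claudin gene cldnc at -0.77 (adjusted p = 0.0701), the complement gene c3a.3 at -2.01 (adjusted p = 0.0943) and the melanosome gene pmelb at -0.61 (adjusted p = 0.118).

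Gene lists were read with 1 entry per symbol, the most abundant, over 19161 symbols. Among these 0.11% were called higher and 0.0261% lower, and 1.87% higher and 1.97% lower had an unadjusted p under 0.05. The median over all symbols was 0.01, with quartiles of -0.14 and 0.15, and 10054 symbols lay above 0 and 9106 below. Counts at the unadjusted p are descriptions and not calls. A gene given below with an unadjusted p alone did not pass the adjusted threshold. Members of all the lists were chosen with earlier results of these data known, so the counts are not independent evidence.

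Of 36 measured Nrf2 regulators and antioxidant genes, 1 rose (nfe2l2b) and none fell. Another 6 had an unadjusted p under 0.05, all above 0, and 28 of the 36 lay above 0, with a median of 0.19. This list leaves out the glutathione transferase gene gstp1, which was called within the Ah receptor target list. Glutathione reductase (gsr), which regenerates reduced glutathione, was at 1.14 (unadjusted p = 1.90e-04, adjusted p = 0.0872) in the authors' deposited table. The Nrf2 inhibitor gene keap1b was at 0.46 (unadjusted p = 0.00682). Genes of conjugation gave 1 call, ugt1a7, among 33 measured, with a median of -0.10, and gsto2 was at 0.55 (unadjusted p = 0.0545). The called sulfotransferase gene sult6b1 and gstp1 were counted among the Ah receptor targets and not in this list. Cytochrome P450 genes outside family 1 gave no call among 43, and 30 of them lay below 0 (median -0.11); cyp2aa11 was at -1.04 (unadjusted p = 0.0139). ABC transporter genes, which export conjugates and lipids, gave no call among 45 and were split evenly around 0, with abcg2d at -0.73 (unadjusted p = 0.00117, adjusted p = 0.288); 2 genes on each side of 0 had an unadjusted p under 0.05.

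The clock list, also chosen with earlier results known, gave no call among 39 genes, with a median of 0.04. At an unadjusted p under 0.05 it held 7 genes, all above 0, which is 7 of 39 against the 1.87% of all symbols. Besides per2 and nr1d1 these included cry1a, a light-induced repressor, at 0.76 (unadjusted p = 0.00129, adjusted p = 0.303) in the authors' deposited table. The hour of sampling is not given in the labels. Glucocorticoid-responsive genes gave no call among 21, with klf9 at 0.94 (unadjusted p = 0.0046), fkbp5, a chaperone of the glucocorticoid receptor, at 0.87 (unadjusted p = 0.0118) and hsd11b2, which inactivates glucocorticoids, at -0.51 (unadjusted p = 0.0343). Of the 21 genes 9 lay above 0 and 12 below, with a median of -0.03.

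The pituitary list held the fall of prl as its single call among 8 measured hormones and processing genes; lhb was at 0.96 (unadjusted p = 0.044), and the list median was 0.27. In the list named for ionocytes, the ion-transporting cells of fish skin and gill, rhcgb rose and no other gene of 36 was called. The average of rhcgb, 1.68 CPM, includes the B[a]P libraries, where it was higher. The RNA is of the whole body, so the cells behind the rise are not known. At an unadjusted p under 0.05 the list held 4 genes above 0, rhcgb included, and 3 below. The chloride channel gene clcn2c was at -1.25 (adjusted p = 0.181) and the sodium-chloride cotransporter gene slc12a10.2 at -0.76 (unadjusted p = 0.0161) in the authors' deposited table. The list lay evenly around 0, with 18 genes on each side. Among otolith and inner ear genes 1 of 19 fell (stm). The other lower values included the otolith matrix genes otomp at -0.96 (unadjusted p = 0.0059, adjusted p = 0.732) and oc90 at -0.82 (unadjusted p = 0.0431). Of the 19 genes 7 lay above 0 and 12 below, and the list median was -0.12.

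**Figure D4:**
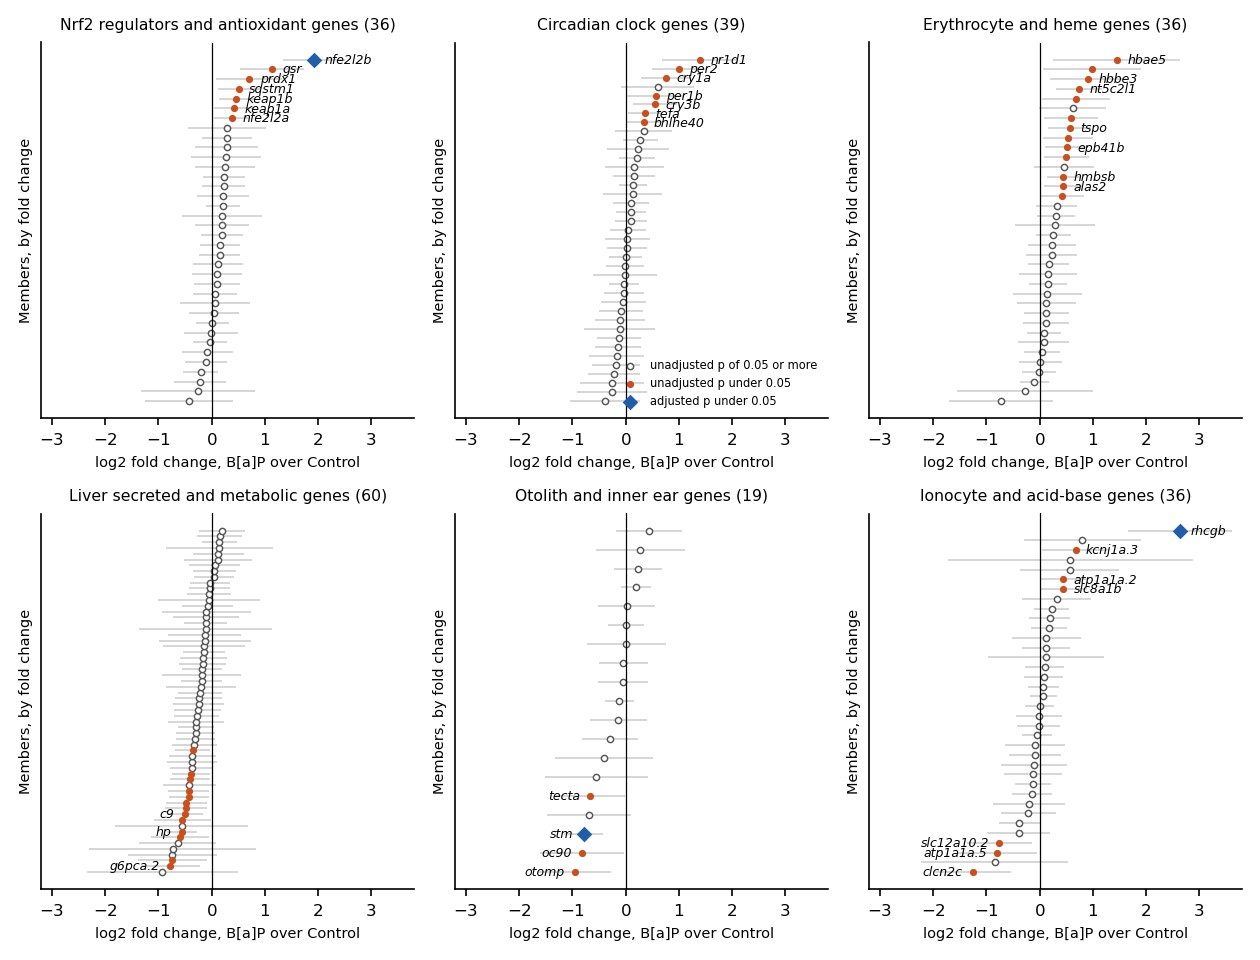
Log2 fold changes, B[a]P over Control (x axis), with implied 95% intervals for the members of 6 gene lists, ordered by value (rows); diamonds passed the adjusted threshold and filled circles the unadjusted one. Called members are nfe2l2b, stm and rhcgb; 51 of the 60 liver genes lie below 0 and 32 of the 36 erythrocyte and heme genes above it.

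Erythrocyte and heme genes gave no call among 36 measured, but 13 had an unadjusted p under 0.05, all above 0, and the median was 0.27 with quartiles of 0.12 and 0.52. They included nt5c2l1 at 0.74 (unadjusted p = 8.08e-04, adjusted p = 0.239), the heme synthesis gene hmbsb at 0.44 (unadjusted p = 0.00513) and alas2, which makes the first heme precursor in red cells, at 0.44 (unadjusted p = 0.0177) in the authors' deposited table. Liver genes went the other way, with no call among 60, 13 at an unadjusted p under 0.05, all below 0, and a median of -0.24 with quartiles of -0.42 and -0.10. After hp these were led by the complement gene c9 at -0.50 (unadjusted p = 0.00287) and the glucose-releasing enzyme gene g6pca.2 at -0.78 (unadjusted p = 0.00594). In whole-body RNA, fewer cells of a type and less RNA per cell cannot be told apart. Members of a list share libraries and cells and are not replicates.

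Skeletal muscle, lens, ribosomal and mitochondrial lists also lay to one side of 0 without a call. The median implied SE of their members was, in that order, 0.20, 0.38, 0.24 and 0.22. Skeletal muscle genes had 76 of 82 above 0 and a median of 0.22, with the calcium release channel gene ryr3 at 0.42 (unadjusted p = 0.0147). A separate list of 20 myogenic regulators did not share this lean, with 7 above 0, 13 below and a median of -0.04. Lens genes had 45 of 48 above 0 and a median of 0.28, led by the crystallin genes crygm2d18 at 1.04 (unadjusted p = 9.05e-04) and crygm2d6 at 1.14 (unadjusted p = 0.00213); these crystallins are near-identical copies, so the division of reads among them is uncertain. Cytosolic ribosomal protein genes had 75 of 77 above 0 and a median of 0.14, and all 13 mitochondrially encoded genes lay above 0 with a median of 0.17, with none at an unadjusted p under 0.05 in either list of the authors' deposited table. Neuron and glia genes had 46 of 61 above 0 (median 0.15), cartilage, bone and collagen genes 33 of 48 below 0 (median -0.12), and photoreceptor genes 21 of 31 below 0 (median -0.15), with the visual cycle gene rpe65a at -0.58 (unadjusted p = 0.0127); at an unadjusted p under 0.05 that list held 1 gene above 0 and 3 below. None of these lists held a call.

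**Figure D5:**
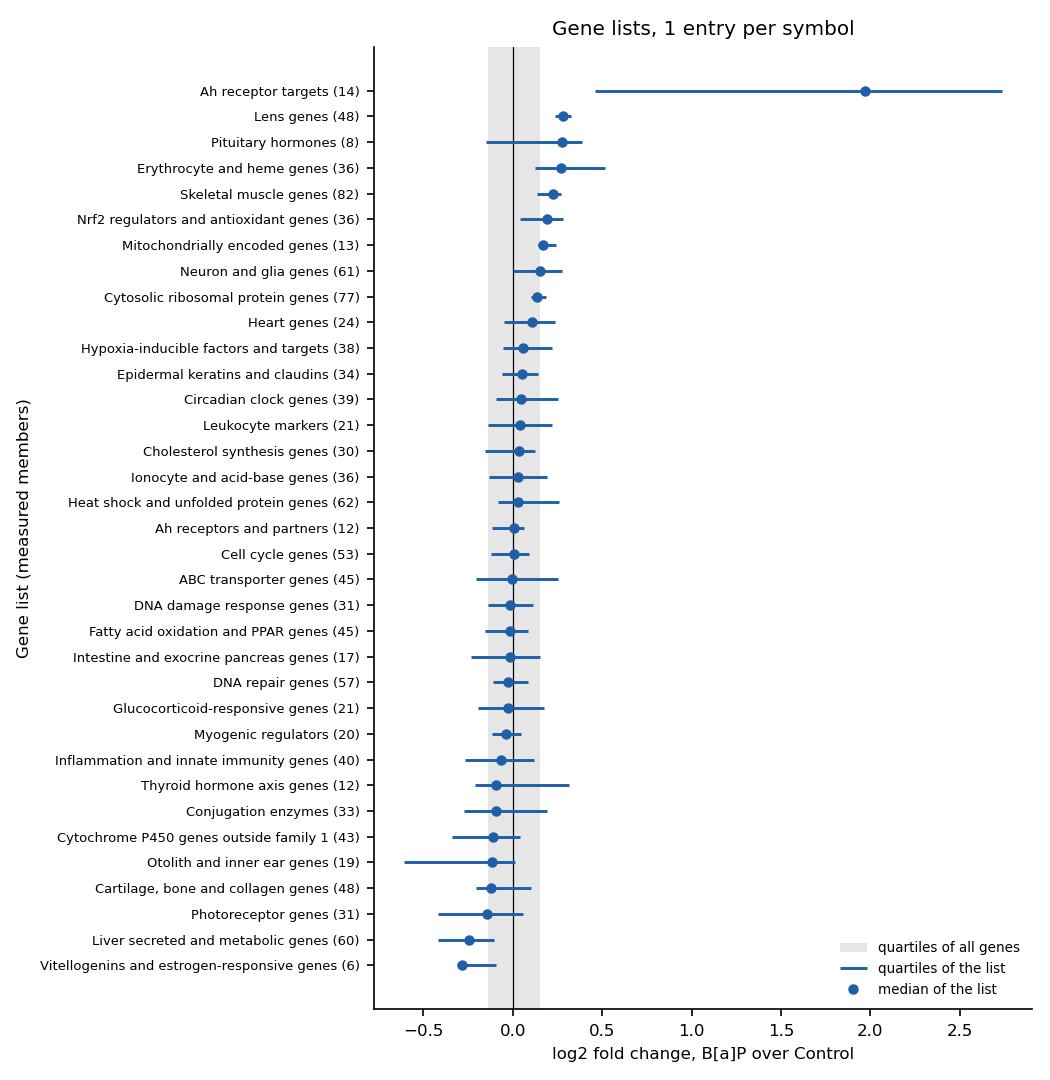
Median log2 fold change, B[a]P over Control (x axis), with quartiles (lines) for each gene list and for all symbols. The Ah receptor targets have a median of 1.97, the other lists lie between -0.29 and 0.28, and the median of all symbols is 0.01.

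Genes answering DNA damage were without a call. Of 31 measured damage response genes 15 lay above 0 and 16 below, with a median of -0.01; gadd45aa was at 0.71 (unadjusted p = 0.0315), the sestrin gene sesn3 at -0.37 (unadjusted p = 0.0324) and the cell cycle inhibitor gene cdkn1a, a target of p53, at 0.53 (unadjusted p = 0.0968) in the authors' deposited table. DNA repair genes gave none among 57 (median -0.03), with the checkpoint kinase gene atr at -0.43 (unadjusted p = 0.0145). Cell cycle genes gave none among 53 (median 0.01), and none of these had an unadjusted p under 0.05.

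Stress and immune lists also gave no call: 62 heat shock and unfolded protein genes (median 0.03), 38 hypoxia genes (0.06), 40 inflammation genes (-0.07) and 21 leukocyte markers (0.04). At an unadjusted p under 0.05 the heat shock list held 3 genes above 0 and 1 below, and the inflammation list 1 on each side. Single values included the small heat shock gene hspb6 at 0.75 (unadjusted p = 0.0113), the chemokine genes ccl34a.4 at 1.87 (unadjusted p = 0.00796) and cxcl8a at -0.96 (unadjusted p = 0.0418), and the neutrophil myeloperoxidase gene mpx at 0.52 (unadjusted p = 0.0175) in the authors' deposited table. In the heart list 24 genes gave no call, with 17 above 0 and 7 below (median 0.11); the atrial myosin gene myh6 was at 0.62 (unadjusted p = 0.00944) and the cardiac transcription factor gene nkx2.5 at -0.65 (unadjusted p = 0.0446). Lipid genes had no call among 30 of cholesterol synthesis (median 0.04) and 45 of fatty acid oxidation (median -0.01), with pparg at 0.83 (unadjusted p = 0.0159) and the lipoprotein lipase gene lpl at -0.33 (unadjusted p = 0.0466). Of 17 vitellogenin and estrogen-responsive genes listed, only 6 averaged at least 1 CPM, and vtg1, a yolk protein precursor, was at -0.59 ± 0.91 (unadjusted p = 0.518).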

How the data were processed

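RNA of 12 whole-body zebrafish libraries (polyA RNA, Kapa stranded mRNA kit, Illumina paired-end reads, per the labels' protocols) was grouped by the treatment label, and the 6 libraries of B[a]P and Control were compared. Tools in the submitters' processing notes are edgeR, limma and kallisto, with the build GRCz11 and no version or role; how entries were filtered and libraries scaled is not given in the sources used here. Both log2 fold changes and an average in log2 CPM are as the authors deposited them. No base is stated; base 2 was used, since the averages raised from it sum to 1.01e+06, near the total of CPM values. The average is described as that of B[a]P but was the same in the 3 comparisons (0 entries differed). The authors' likelihood ratio was handled as a score. The deposited p-value equalled its chi-square tail on 1 degree of freedom (largest relative difference 6.54e-13), so it is unadjusted. The 8 columns of the other comparisons were not used.

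From these, p-values were adjusted by Benjamini-Hochberg over entries averaging at least 1 CPM. The SE was implied as the absolute log2 fold change divided by the root of the likelihood ratio. It was left undefined for 8 tested entries with a ratio of 0 or an absolute fold change under 1e-06, where the quotient is numerical noise; this limit was set after seeing the data. It assumes a symmetric error and is rough at large changes. The procedure was run on simulated data drawn with normal errors at the implied SE, which cannot test that assumption.

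The genes of the 35 lists (1531 members, 1435 matched by symbol, 15 through older RefSeq names in GRCz12tu) and the rule for named genes were chosen with earlier results of these data known. The rule took all called entries, the next 10 by p in each direction, the 3 members of smallest p per list described, and 8 regulators and marker genes; not all are printed. Tests that need values per library were not run. Alternatives were other abundance filters, adjustments, fold limits, entry classes, centring and, added after seeing the data, a limit of 1 on the implied SE. Python 3.11.15, NumPy 2.4.6, pandas 2.3.3, SciPy 1.17.1 and Matplotlib 3.10.9 were used.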

Additional observations from a re-analysis of the deposited data

How the results depend on the processing

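The main count was 32 entries, 25 higher and 7 lower. The count of either direction moved by over 1.5 times only under Benjamini-Yekutieli adjustment, which called 21. The lower count moved most: it was 1 (rpe) under that adjustment, 3 (prl, stm and rdh5) at an average of at least 5 CPM, 4 (slc23a3 and the 3 lower entries with an SE over 1) with a limit of 1.5 on the absolute log2 fold change, and 4 (prl, stm, rdh5 and slc23a3) with the implied SE limited to 1, an alternative chosen after seeing the data. Without an abundance filter there were 38, with protein-coding entries alone 29, with 1 entry per symbol 26, and with fold changes centred on their median 33, where hp was added at an adjusted p of 0.0343. Centring first gave 2 more calls, of entries whose fold change was numerically 0; they were removed by leaving their SE undefined. Of the 35 list medians, 6 changed sign under an alternative (ABC transporter, glucocorticoid-responsive, ionocyte, fatty acid oxidation, Ah receptor and partner, and cell cycle genes). The largest absolute median among these 6 in the main reading was 0.0313. No paired analysis was possible because the replicates are already combined in the comparison table, and for the same reason leaving out each replicate, other scalings of counts and other count models were not run. Entries averaging from 1 CPM to less than 4 CPM had the widest implied SEs; what sets them was not tested.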

Other observations

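The genes in this paragraph were chosen after their values were seen. Besides psme1, its partner psme2, which encodes the other subunit of the proteasome activator induced by interferon, had a log2 fold change of 1.11 (95% interval 0.48 to 1.75, adjusted p = 0.193) in the authors' deposited table. Beside the fall of rdh5, another visual cycle gene, rlbp1b, was at -0.61 (unadjusted p = 0.0352). The retinol-binding protein gene rbp7a was at 2.07 ± 0.59 (adjusted p = 0.178), and the myoglobin gene mb was at -0.81 ± 0.25 (adjusted p = 0.276). None of these 4 passed the threshold.

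Below the abundance limit, 782 of 13875 entries (5.64%) had an unadjusted p under 0.05, against 3.98% of the entries above it. With no filter, 6 of them were called, and these included entries of classes other than protein-coding for myog at 6.14 and alad at -6.23 in the authors' deposited table.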
